A study of Mus musculus with 2 samples.

Results

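Killer lymphocytes use a pair of routes to kill a target cell. In granule killing, perforin (Prf1) opens the target's membranes to granzymes, proteases such as Gzma and Gzmk, and the granule proteins Nkg7 and Ctsw travel in the same cells. In death receptor killing, the surface ligands Fasl and Tnfsf10 (TRAIL) bind receptors of the TNF receptor family on the target. Both routes are known in CD8 T cells and in natural killer (NK) cells, which are the main lymphocytes that attack tumour cells directly. The 7 genes described here, Gzma, Gzmk, Prf1, Nkg7, Ctsw, Fasl and Tnfsf10, were chosen by name among 27998 listed genes, and each was found in both libraries.

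Female C57BL/6 mice, 5 weeks old, carried the transplantable melanoma B16, and CD45+ cells (leukocytes) were sorted from their tumours on day 14. The first library came from Nrp1L/LFoxp3Cre-YFP mice (called Nrp1L/L here), in which Cre made under the Foxp3 promoter acts on loxP-flanked Nrp1 in regulatory T cells. Foxp3Cre-YFP mice, with the same Cre and reporter but without the loxP-flanked Nrp1, gave the control library. Transcripts were counted as unique molecular identifiers (UMIs, 1 per captured molecule) in 1301 Nrp1L/L and 1310 control cell barcodes, and 3 barcode sequences occurred in both libraries. With 1 library per genotype, and no statement in the sources used here of how many mice gave it, no difference between genotypes could be tested. All intervals below are 95% intervals for counting error, and they do not cover differences between cells, mice or libraries.

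Levels are given in CPM, the UMIs of a gene per 1000000 UMIs of a cell class in a library, from 3' counting, and are not divided by transcript length. The cells were placed in 4 classes by UMIs of marker genes. CD8 T cells (404 Nrp1L/L, 243 control) had at least 2 UMIs of Cd3d, Cd3e and Cd3g together and at least 2 of Cd8a and Cd8b1. The other CD3 class (383 Nrp1L/L, 212 control) met the first condition but not the second. NK cells (209 Nrp1L/L, 90 control) had at least 2 UMIs of Ncr1, Klrb1c and Klre1 and at most 1 of the CD3 genes, and myeloid cells (202 Nrp1L/L, 557 control) had at least 10 UMIs of Lyz2 and at most 1 of the CD3 genes. Barcodes meeting both of the last gates (3 Nrp1L/L, 8 control) were put with those in no class (103 Nrp1L/L, 208 control). Levels of the gating genes follow from the gates and do not check them. The Cd8a and Cd8b1 level was 2638 in Nrp1L/L and 1579 in control CD8 T cells, against 16.7 in Nrp1L/L and 10.1 in control NK cells. A list of 9 NK markers, the gating genes among them, stood at 7532 in Nrp1L/L and 5516 in control NK cells. In myeloid cells the same list, which also holds Tyrobp, stood at 3693 in Nrp1L/L and 3369 in control. Of its 6559 UMIs in Nrp1L/L and 18248 in control myeloid cells, few were of the gating genes, which the gates limit. Ncr1 had 4 UMIs in Nrp1L/L and 5 in control, Klrb1c 2 in Nrp1L/L and 3 in control, and Klre1 8 in Nrp1L/L and 15 in control. Eomes, also on the list, had 0 in both. The myeloid level of the list was thus not a level of these genes. The monocyte and macrophage markers, 10 of 10 found, were also present in the other CD3 class, where their summed level was 2517 in Nrp1L/L and 1718 in control cells, against 33163 in Nrp1L/L and 26424 in control myeloid cells. Leaving out the other CD3 cells with at least 10 UMIs of Lyz2 (12 Nrp1L/L, 11 control) moved no member of that class across 1.5-fold between libraries. Any further part of these markers in the values of that class was not tested.

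The libraries differed in depth. The median was 5334 UMIs per barcode in the Nrp1L/L library and 8079.5 in the control library, so shares of cells with a UMI are also given after each cell was thinned at random to 2500 UMIs, which left out no cell. The classes differed in cell cycle as well. Cycling cells, defined by 3 or more UMIs of 6 cell cycle genes, were 25.5% of Nrp1L/L and 44.0% of control CD8 T cells. They were 8.09% of Nrp1L/L and 22.6% of control other CD3 cells, and 6.22% of Nrp1L/L and 12.2% of control NK cells. The targeted gene could not check the genotypes. Nrp1 had 25 UMIs in 114 Nrp1L/L and 43 UMIs in 82 control cells of the gate on Foxp3, Il2ra and Ikzf2 used below, and a 3' count does not report on a deletion elsewhere in the gene.

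Gzma and Gzmk lie beside each other on chromosome 13, on the minus strand, in build GRCm38 (GENCODE M21). Gzma spans chr13:113093825-113100981 and Gzmk chr13:113171608-113225908, with 70.6 kb and no protein-coding gene between them. Prf1 is at chr10:61297833-61304680 on the plus strand. The annotated Gzmk span overlaps Esm1, which is on the other strand and had between 0 and 3 UMIs in every class and library. Ctsw, at chr19:5465043-5468507 on the minus strand, overlaps Fibp on the plus strand. Fibp levels were 55.7 in Nrp1L/L and 53.7 in control myeloid cells, where Ctsw was at 7.32 in Nrp1L/L and 3.14 in control cells. The remaining members are Nkg7 (chr7:43437073-43438249, plus strand), Fasl (chr1:161780689-161788495, minus strand) and Tnfsf10 (chr3:27317028-27342427, plus strand), and no annotated gene overlaps them. The 250 bases before the RefSeq start (GRCm38.p6) are printed for 3 of the 6 members that have a promoter in the RefSeq table, because Gzma, Gzmk and Prf1 had the most different patterns over the cell classes. Capitals mark matches, on either strand, to 5 motifs: the T-box half-site GGTGTGA, the Runx site TGTGGT, the Ets site GGAAGT, the interferon-stimulated element (GAAA, any 2 bases, GAAA) and the gamma-activated site TTCNNNGAA.
Gzma, chr13:113100982-113101231, minus strand: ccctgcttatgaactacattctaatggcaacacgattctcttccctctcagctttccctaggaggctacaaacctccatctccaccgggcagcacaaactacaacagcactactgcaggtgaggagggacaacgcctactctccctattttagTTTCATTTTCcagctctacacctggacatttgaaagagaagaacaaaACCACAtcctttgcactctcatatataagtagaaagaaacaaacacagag
Gzmk, chr13:113180966-113181215, minus strand: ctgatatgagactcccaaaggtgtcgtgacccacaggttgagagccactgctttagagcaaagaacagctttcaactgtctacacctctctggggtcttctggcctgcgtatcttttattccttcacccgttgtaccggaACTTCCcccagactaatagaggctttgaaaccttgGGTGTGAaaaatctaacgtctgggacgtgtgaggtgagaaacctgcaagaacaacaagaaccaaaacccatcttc
Prf1, chr10:61297586-61297835, plus strand: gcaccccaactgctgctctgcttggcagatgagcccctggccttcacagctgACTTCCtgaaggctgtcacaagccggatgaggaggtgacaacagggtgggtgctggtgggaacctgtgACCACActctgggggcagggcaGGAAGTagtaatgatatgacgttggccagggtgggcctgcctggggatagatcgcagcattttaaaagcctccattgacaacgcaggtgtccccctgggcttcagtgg

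The Gzma window holds an interferon-stimulated element from -97 to -88 and a Runx site from -50 to -45, counted from the RefSeq start. The Gzmk window holds an Ets site from -110 to -105 and a T-box half-site from -75 to -69. This window lies inside the GENCODE span of Gzmk, which ends at 113225908 on the minus strand. The RefSeq and GENCODE starts of Gzmk thus differ, and its positions count from the RefSeq start only. The Prf1 window holds Ets sites from -198 to -193 and from -108 to -103 and a Runx site from -130 to -125. In the windows of the other members, Nkg7 has a T-box half-site, a Runx site and a gamma-activated site, Fasl has an Ets site, and Tnfsf10 has none of the 5 motifs. Over 32817 RefSeq promoter windows of 250 bases, the share with a match was 3.33% for the T-box half-site, 14.0% for the Runx site, 19.7% for the Ets site, 2.97% for the interferon-stimulated element and 7.01% for the gamma-activated site. A match here is a run of letters and was not read as a bound site.

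**Figure D1:**
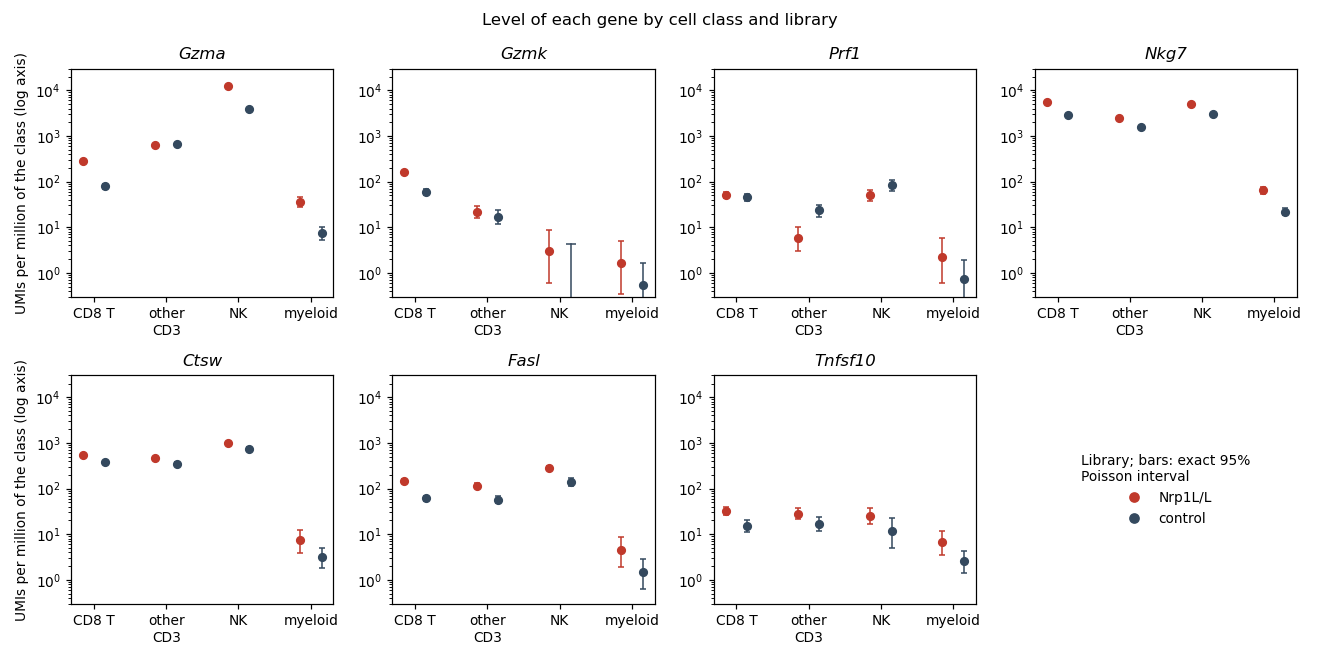
Level of each gene in CPM of the class (log axis) in CD8 T, other CD3, NK and myeloid cells, with Nrp1L/L points left of control points and bars for the exact 95% Poisson interval; a bar without a point is a count of 0 and reaches the limit of 3 counts. Gzma spans from 12337 in Nrp1L/L NK cells to 7.39 in control myeloid cells, whereas Tnfsf10 stays between 2.59 and 32.4 everywhere.

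Gzma, a granule protease that cuts after basic residues, was by far highest in NK cells. Its level there was 12337 CPM (12122 to 12555) in the Nrp1L/L library and 3985 CPM (3838 to 4137) in the control library. The other CD3 class came next, with 620 CPM in Nrp1L/L and 681 CPM in control cells, ahead of CD8 T cells, with 276 CPM in Nrp1L/L and 78.3 CPM in control cells. Within each library the NK level was therefore far above the CD8 T level, 44.7-fold in Nrp1L/L and 50.9-fold in control, and NK cells held 81.8% of all Gzma UMIs of the Nrp1L/L library and 61.8% of those of the control library. The median NK cell carried 47 Gzma UMIs in the Nrp1L/L and 21 in the control library, although the control cells were deeper.

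Gzmk, a related protease whose gene is Gzma's neighbour, had the opposite distribution. CD8 T cells held 91.3% of its UMIs in the Nrp1L/L and 84.3% in the control library, at levels of 159 (146 to 172) in Nrp1L/L and 59.9 (51.6 to 69.1) in control cells. NK cells had 3 UMIs in 209 Nrp1L/L cells and 0 UMIs in 90 control cells, and the control count allows a share of cells with a UMI of up to 3.33%. The CD8 T level was 53.7-fold the NK level in the Nrp1L/L library, with a log2 interval for NK over CD8 T from -8.03 to -4.19, and at least 13.8-fold the NK level in the control library, against a limit of 3 counts over the class. Across the 8 groups of class and library the log2 levels of Gzma and Gzmk had a Pearson r of -0.05. The other 20 pairs of members had r between 0.33 and 0.99, and these 8 groups share 2 libraries and so are a description only.

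Perforin was found mainly in NK and CD8 T cells. Prf1 stood at 50.2 (37.4 to 66.1) in Nrp1L/L and 82.6 (62.6 to 107) in control NK cells. In CD8 T cells it stood at 51.4 (44.2 to 59.5) in Nrp1L/L and 45.5 (38.4 to 53.7) in control cells. NK and CD8 T cells could not be separated in the Nrp1L/L library, with a log2 ratio of NK over CD8 T of -0.03 (-0.51 to 0.42), while in the control library it was 0.86 (0.39 to 1.31). A Prf1 UMI was seen in 13.9% of Nrp1L/L and 25.6% of control NK cells, and in 19.3% of Nrp1L/L and 20.2% of control CD8 T cells. After thinning, the shares were 9.09% of Nrp1L/L and 16.7% of control NK cells, and 8.66% of Nrp1L/L and 6.58% of control CD8 T cells.

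Nkg7, a granule membrane protein needed for efficient granule release, was in nearly every killer cell. The share of cells with a UMI was 98.8% in Nrp1L/L and 98.4% in control CD8 T cells, and 100% in Nrp1L/L and 97.8% in control NK cells. Its level in NK cells was 5098 in Nrp1L/L and 3049 in control, close to the 5513 in Nrp1L/L and 2869 in control CD8 T cells, and the order of these classes differed between libraries. Ctsw, a cysteine protease made by CD8 T and NK cells, was highest in NK cells, at 1007 in Nrp1L/L and 730 in control, and stood at 552 in Nrp1L/L and 382 in control CD8 T cells. Its log2 ratio of NK over CD8 T was 0.87 (0.76 to 0.98) in Nrp1L/L and 0.94 (0.78 to 1.09) in control. The levels of Nkg7 and Ctsw ran nearly parallel over the 8 groups, with r = 0.99.

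The death ligands differed in how they were spread over the classes. Fasl, the ligand of Fas, was highest in NK cells, at 284 (252 to 318) in Nrp1L/L and 141 (114 to 171) in control, and next in CD8 T cells, at 145 in Nrp1L/L and 60.5 in control. The CD8 T and other CD3 levels of Fasl overlapped in the control library, with a log2 ratio of 0.08 (-0.27 to 0.43), and stood a little apart in the Nrp1L/L library, at 0.34 (0.11 to 0.57). Tnfsf10, the ligand of the TRAIL receptor, had no clear leading class. It stood at 32.4 in Nrp1L/L and 15.3 in control CD8 T cells, at 28.2 in Nrp1L/L and 17.0 in control other CD3 cells, and at 25.6 in Nrp1L/L and 11.6 in control NK cells, and every ratio between these 3 classes had an interval that covers 0 in both libraries.

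**Figure D2:**
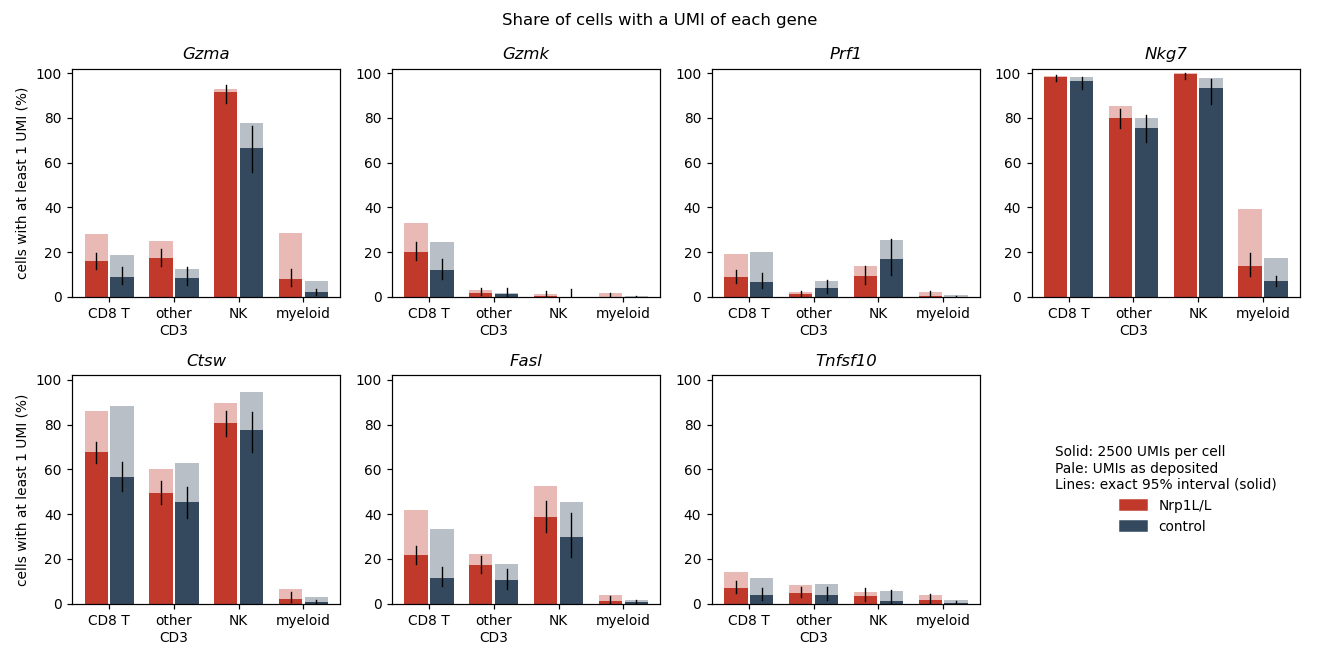
Share of cells with at least 1 UMI of each gene (%), by class, with Nrp1L/L bars left of control bars; pale bars are UMIs as deposited, solid bars are cells thinned to 2500 UMIs, and lines are exact 95% binomial intervals of the solid bars. After thinning, Gzma was found in 91.4% of Nrp1L/L and 66.7% of control NK cells, and Nkg7 in at least 93.3% of NK and CD8 T cells in both libraries.

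Myeloid cells, which are not a usual source of granzymes, gave the background of detection. Gzma UMIs were seen in 28.7% of Nrp1L/L and 6.82% of control myeloid cells, at median depths of 8278.5 UMIs in Nrp1L/L and 8584 UMIs in control cells, and no myeloid cell had more than 2. The myeloid level of Gzma was 2.15% of the level over all cells of the library in Nrp1L/L and 2.16% in control. The same share was 1.92% in Nrp1L/L and 1.99% in control for Nkg7, 1.66% in Nrp1L/L and 1.70% in control for Ctsw, and 1.79% in Nrp1L/L and 1.81% in control for Gzmb, the abundant granzyme of both killer classes. Thus the myeloid levels of these genes differed between libraries by nearly the same factor as the levels of the whole libraries. Tnfsf10 stood apart, with a myeloid level of 28.7% in Nrp1L/L and 33.1% in control of the level over all cells, from 12 UMIs in Nrp1L/L and 14 in control cells. Beside a myeloid share of 7.92% in Nrp1L/L and 1.97% in control after thinning, Gzma was found in 15.8% of Nrp1L/L and 9.05% of control CD8 T cells. Counting only cells above the myeloid maximum, with 3 or more Gzma UMIs, left 40 of 404 Nrp1L/L (9.90%) and 17 of 243 control CD8 T cells (6.996%).

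**Figure D3:**
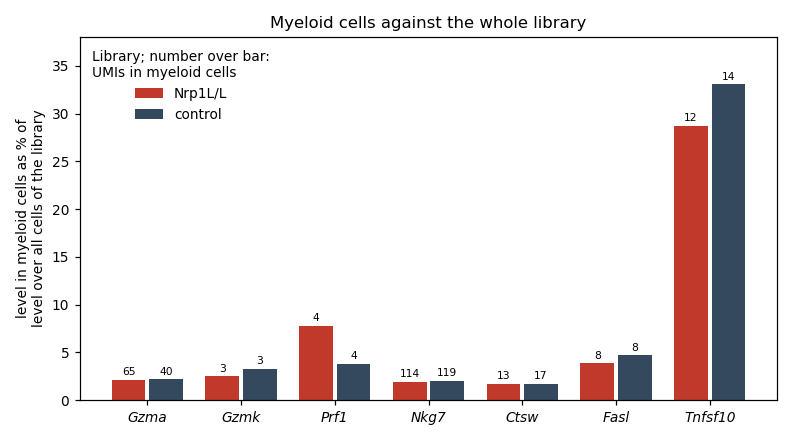
Level of each gene in myeloid cells as a percentage of its level over all cells of the library, Nrp1L/L bars left of control bars, with the number of myeloid UMIs over each bar. For Gzma, Nkg7 and Ctsw the bars lie between 1.66% and 2.16% in both libraries, and Tnfsf10 stands at 28.7% in Nrp1L/L and 33.1% in control.

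Between the genotypes, several members were higher in the Nrp1L/L library in each lymphocyte class, and perforin was the member lower in NK cells and in the other CD3 class. A member was counted where its level differed by at least 1.5-fold and it had at least 20 UMIs over both libraries in the class. In CD8 T cells 5 of 7 members were higher in Nrp1L/L and 0 were lower, where 15.7% of 9035 genes were higher and 14.2% lower by the same rule. In NK cells 4 of 6 were higher and 1 was lower, where 23.0% of 6086 genes were higher and 13.5% lower. In the other CD3 class 3 of 7 were higher and 1 was lower, where 17.1% of 8400 genes were higher and 15.5% lower. The 3 became 2 under 4 alternatives, stricter gates and thinning with classes kept among them. The count of 1 lower, in NK cells and in the other CD3 class, became 0 under some alternatives given below. The median log2 ratio of the members was 1.08 in CD8 T cells, 0.88 in NK cells and 0.39 in the other CD3 class, and over all genes it was -0.01 in CD8 T cells, 0.09 in NK cells and -0.00 in the other CD3 class. In myeloid cells all 4 members that had 20 UMIs were higher, where 13.5% of 8912 genes were higher and 20.5% lower, with the background described above.

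**Figure D4:**
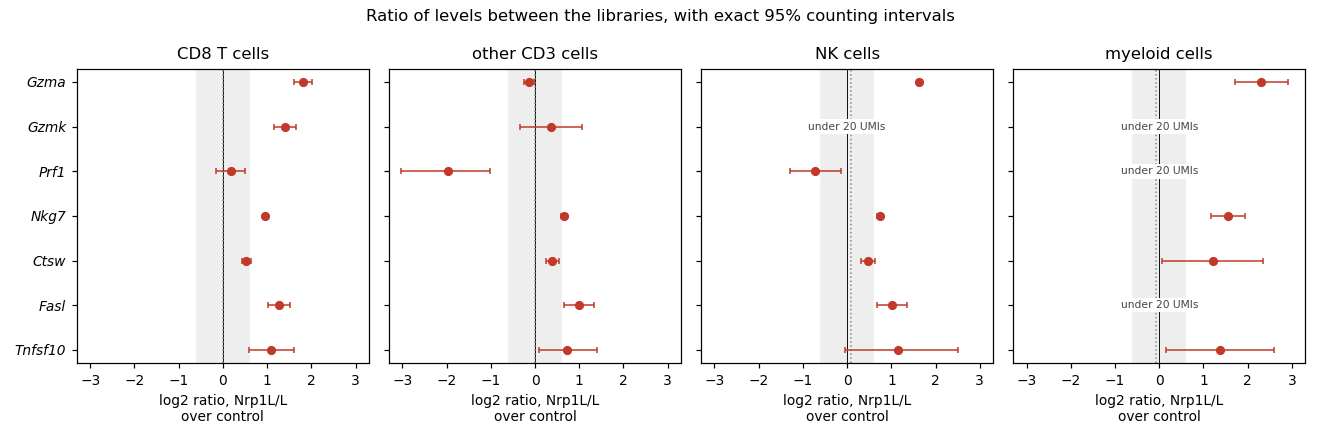
Log2 ratio of the level in Nrp1L/L over control for each gene, in 1 panel per class, with exact 95% counting intervals; grey marks less than 1.5-fold and the dotted line is the median of all genes of the class. In CD8 T cells 5 genes lie right of the grey band and Prf1 (0.17) and Ctsw (0.53) lie within it.

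Among CD8 T cells the largest ratio was that of Gzma. Its level was 276 (259 to 294) in Nrp1L/L and 78.3 (68.9 to 88.8) in control cells, a log2 ratio of 1.82 (1.61 to 2.02). The UMIs were concentrated, since the tenth of cells with most Gzma held 90.8% of them in Nrp1L/L and 91.9% in control, and 1 Nrp1L/L cell held 242 of 972. Without the cell with most Gzma in each library the log2 ratio was 1.74. Gzmk had 559 UMIs in 133 of 404 Nrp1L/L cells and 188 UMIs in 59 of 243 control cells, a log2 ratio of 1.41 (1.17 to 1.65), and was spread over more cells than Gzma. For both proteases the ratio was present in cycling cells (1.69 for Gzma and 1.45 for Gzmk) and in non-cycling cells (2.18 for Gzma and 1.26 for Gzmk). By NK markers the Gzma ratio was uneven. It was 0.54 (0.23 to 0.85), under 1.5-fold, in CD8 T cells with 2 or more UMIs of these markers. In CD8 T cells without them it was 2.68 (2.38 to 2.99). The Gzmk ratio was 1.51 in cells with NK markers and 1.34 in cells without. In CD8 T cells this split is mainly one by Klre1, which had 766 UMIs in Nrp1L/L and 382 in control. Ncr1 had 25 UMIs in Nrp1L/L and 12 in control, and Klrb1c 23 in Nrp1L/L and 20 in control.

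The granule proteins of CD8 T cells were split. Nkg7 was higher in Nrp1L/L by 0.94 (0.91 to 0.98) on the log2 scale, and by 0.84 in cycling and 0.86 in non-cycling cells. Ctsw was higher by 0.53 (0.43 to 0.64), which is under 1.5-fold, and this ratio sat in the cycling cells, where it was 0.71 (0.55 to 0.87), against 0.12 (-0.02 to 0.26) in non-cycling cells. Cycling CD8 T cells had less Ctsw than non-cycling ones in both libraries, by a log2 ratio of -0.51 in Nrp1L/L and -1.10 in control, and the share of cycling cells was lower in Nrp1L/L, as given above. Prf1 had 181 UMIs in Nrp1L/L and 143 in control CD8 T cells, a log2 ratio of 0.17 (-0.15 to 0.50).

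Both death ligands were higher in Nrp1L/L CD8 T cells. Fasl had 511 UMIs in Nrp1L/L and 190 in control cells, a log2 ratio of 1.26 (1.02 to 1.51), and 1.16 without the cell with most UMIs in each library. The Fasl ratio was 1.52 (1.16 to 1.91) in non-cycling and 0.62 (0.26 to 0.99) in cycling cells. The difference between these ratios was not tested. Their intervals leave out the spread between cells, and 1 Nrp1L/L CD8 T cell held at least 30 of the 511 UMIs. Tnfsf10 had 114 UMIs in Nrp1L/L and 48 in control cells, a log2 ratio of 1.08 (0.58 to 1.60), at 0.99 in cycling and 1.13 in non-cycling cells. Thinned shares followed for both, with Fasl in 21.5% of Nrp1L/L and 11.5% of control CD8 T cells and Tnfsf10 in 7.18% of Nrp1L/L and 3.70% of control cells.

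In NK cells the Gzma UMIs were spread over many cells. The log2 ratio was 1.63 (1.57 to 1.69), and the cell with most UMIs held 2.99% of them in Nrp1L/L and 9.09% in control. Cells with at least 100 Gzma UMIs were 45 of 209 in Nrp1L/L (21.5%) and 4 of 90 in control (4.44%), and cells with none were 15 of 209 in Nrp1L/L (7.18%) and 20 of 90 in control (22.2%). The ratio was 1.41 (1.34 to 1.47) in non-cycling and 2.11 (1.90 to 2.32) in cycling NK cells, and cycling cells had less Gzma than non-cycling ones in both libraries.

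**Figure D5:**
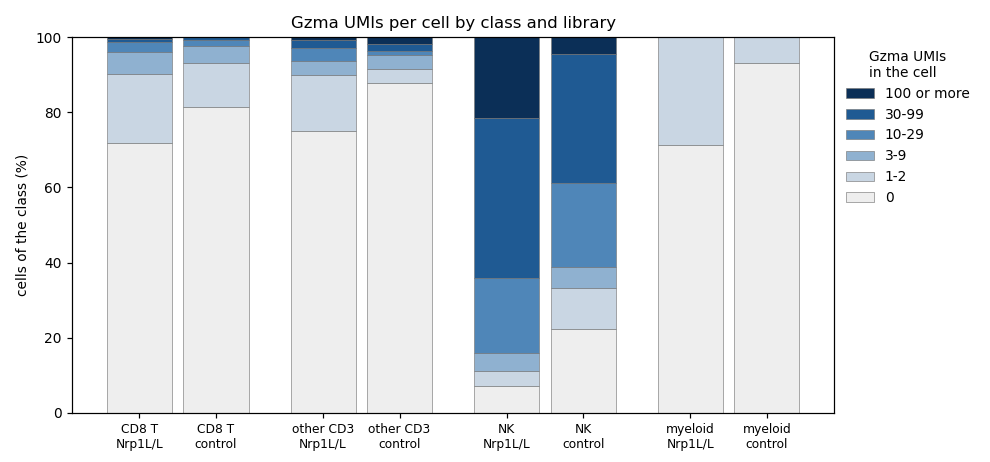
Share of cells (%) by number of Gzma UMIs in the cell, for each class with the Nrp1L/L bar left of the control bar; darker parts are more UMIs. NK cells with 100 or more UMIs were 21.5% in Nrp1L/L and 4.44% in control, and every myeloid cell had 2 or fewer.

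The NK class was mixed for Gzma. Cells with fewer than 3 Gzma UMIs were 23 of 209 in Nrp1L/L and 30 of 90 in control, and they were not the shallow ones, with median depths of 6070 UMIs in Nrp1L/L and 6873 in control, against 3995.5 in Nrp1L/L and 4777 in control for the rest. This split was made after the values were seen. Gzma-low NK cells had less Nkg7 than Gzma-high ones, by log2 -0.95 in Nrp1L/L and -0.87 in control, and less Fasl, by -1.22 in Nrp1L/L and -1.16 in control. Tnfsf10 went the other way, by 1.77 (0.47 to 2.999) in Nrp1L/L and 1.27 (-1.10 to 3.95) in control, from 10 UMIs in Gzma-low and 16 in Gzma-high cells of Nrp1L/L, and 5 in Gzma-low and 3 in Gzma-high cells of control. In the Nrp1L/L library the 23 Gzma-low cells held 553 of 649 UMIs of Gzmc, a granzyme of the chromosome 14 cluster, and 11 of 228 UMIs of Eomes, a transcription factor of mature NK cells, while their Ncr1 level was 1310 CPM against 775 CPM in Gzma-high cells. The control library shared this only in part. Gzmc was also higher there in Gzma-low cells, at 5795 CPM against 4098 CPM, a log2 ratio of 0.50 against 4.97 in Nrp1L/L. Gzmc was found in 46.7% of control and 21.7% of Nrp1L/L Gzma-low cells. The control Gzma-low cells held 42 of 108 Eomes UMIs in 40.9% of the class's UMIs. Eomes was found in fewer Gzma-low than Gzma-high cells in both libraries, 26.7% against 51.7% in control and 17.4% against 46.2% in Nrp1L/L. Ncr1 was reversed in control, at 569.9 CPM in Gzma-low and 746 CPM in Gzma-high cells.

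Of the other members measured in NK cells, Fasl and Nkg7 were also higher in Nrp1L/L by 1.5-fold or more with intervals above 0, and Gzmk, with 3 UMIs in Nrp1L/L and 0 in control, was too rare to compare. Fasl had 288 UMIs in Nrp1L/L and 97 in control NK cells, a log2 ratio of 1.01 (0.68 to 1.36), which 1 of 12 alternatives brought under 1.5-fold. Nkg7 was at 0.74 (0.67 to 0.82), under 1.5-fold in 3 of 12 alternatives, and Ctsw at 0.46 (0.31 to 0.62). Tnfsf10 had only 26 UMIs in Nrp1L/L and 8 in control, and its ratio of 1.14 (-0.04 to 2.50) was within counting error. Prf1 was lower in Nrp1L/L, with 51 UMIs in 209 Nrp1L/L cells and 57 UMIs in 90 control cells and a log2 ratio of -0.72 (-1.29 to -0.15). The ratio was -0.62 without the cell with most UMIs in each library, and 4 of 12 alternatives, stricter gates among them (-0.37), brought it under 1.5-fold.

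The other CD3 class was the place where Gzma did not differ in the same direction, at 1252 UMIs in Nrp1L/L and 1283 in control and a log2 ratio of -0.13 (-0.25 to -0.02). By cell cycle the ratio was -0.23 (-0.41 to -0.05) in cycling and 0.67 (0.50 to 0.85) in non-cycling cells. The Gzma UMIs of this class came from few cells. The 64 Nrp1L/L and 45 control cells with 2 or more UMIs of the NK markers held 74.0% of the Gzma UMIs of the class in Nrp1L/L and 94.2% in control. Within them, 4 Nrp1L/L and 10 control cells had Cd3g UMIs but none of Cd3d or Cd3e, and each had Tyrobp, an adaptor of NK receptors. Those 4 cells held 14.8% of the class's Gzma UMIs in Nrp1L/L, and those 10 cells held 70.1% in control, where 1 cell held 404 of 1283.

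The sign of the ratio turned without these cells. Without the cells with NK markers and Cd3g only, the Gzma level was 536 in Nrp1L/L and 222 in control and the log2 ratio 1.27 (1.10 to 1.45). Of other T cell markers they had 0 UMIs of Cd5 and Cd6 in both libraries, while Cd2 was found in 3 of 4 Nrp1L/L and 7 of 10 control cells and Lat in 3 of 4 Nrp1L/L and 5 of 10 control cells. In NK cells Cd2 was found in 76.6% of Nrp1L/L and 83.3% of control cells, and Lat in 23.0% of Nrp1L/L and 23.3% of control cells. In the rest of the cells with NK markers, Cd5 was found in 6.67% of Nrp1L/L and 8.57% of control cells. Cd6 was found there in 16.7% of Nrp1L/L and 11.4% of control cells. The Gzma level of the cells with Cd3g only was 7082 CPM in Nrp1L/L and 5980 CPM in control, against 2301 CPM in Nrp1L/L and 1124 CPM in control for the rest of the cells with NK markers. Prf1 had the same source. It had 12 UMIs in Nrp1L/L and 44 in control other CD3 cells, a log2 ratio of -1.97 (-3.03 to -1.03), and 33 of the 44 control UMIs were in the 10 cells with Cd3g only. Without those cells Prf1 had 9 UMIs in Nrp1L/L and 11 in control and a log2 ratio of -0.49 (-1.94 to 0.92). The selection of these cells followed the sight of their values.

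Fasl and Nkg7 in the other CD3 class were spread more widely. Fasl had 231 UMIs in Nrp1L/L and 108 in control cells, a log2 ratio of 1.00 (0.66 to 1.34), and Nkg7 had a ratio of 0.65 (0.58 to 0.72), under 1.5-fold in 4 of 12 alternatives. Ctsw was at 0.39 (0.25 to 0.54) and Tnfsf10, with 57 UMIs in Nrp1L/L and 32 in control, at 0.73 (0.08 to 1.41), under 1.5-fold in 6 of 12 alternatives. Gzmk had 44 UMIs in 12 of 383 Nrp1L/L cells and 32 UMIs in 4 of 212 control cells, and its ratio of 0.36 (-0.33 to 1.06) was within counting error.

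Genes of regulatory T cells gave a further gate, other CD3 cells without NK markers that had at least 2 UMIs of Foxp3, Il2ra and Ikzf2 (114 Nrp1L/L, 82 control). Foxp3 itself had only 5 UMIs in Nrp1L/L and 3 in control over the whole other CD3 class, so the gate rests on Il2ra and Ikzf2, and in which of these cells the Cre acted cannot be told from the counts. Gzma had 76 UMIs in 24 of 114 Nrp1L/L cells and 4 UMIs in 4 of 82 control cells, a log2 ratio of 4.53 (3.12 to 6.44), and 1 Nrp1L/L cell held 23 of the 76. The levels were 118 CPM in Nrp1L/L and 5.09 CPM in control, beside myeloid levels of 36.6 CPM in Nrp1L/L and 7.39 CPM in control. After thinning it was found in 13.2% of Nrp1L/L and 1.22% of control cells, beside a myeloid share of 7.92% in Nrp1L/L and 1.97% in control. The control level and share were thus not above those of myeloid cells. Nkg7 was carried by most of these cells, at 2465 in Nrp1L/L and 1376 in control and a log2 ratio of 0.84 (0.73 to 0.95). Ctsw stood at 423 in Nrp1L/L and 197 in control, a ratio of 1.10 (0.81 to 1.39), and Fasl, from 43 UMIs in Nrp1L/L and 13 in control, at a ratio of 2.01 (1.09 to 3.03). Gzmk had 1 UMI in Nrp1L/L and 0 in control, and Prf1 had 3 in Nrp1L/L and 2 in control, so that these cells carried Nkg7 and Ctsw almost without perforin or Gzmk in the counts.

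Within CD8 T cells, Gzmk and Gzma overlapped partly. The splits of CD8 T cells by Gzmk or Gzma were made after values were seen, and 1 UMI made a cell positive. Before thinning, 114 Nrp1L/L and 45 control cells were Gzma-positive. Of these, 74 in Nrp1L/L and 28 in control had only 1 or 2 Gzma UMIs, a number also seen in myeloid cells. After thinning, 20 of 404 Nrp1L/L cells had both, where the product of the single shares gives 12.8 cells. In control, 6 of 243 cells had both, where the product gives 2.63. CD8 T cells with a Gzmk UMI had less Tnfsf10 than those without in control, at -2.06 (-4.00 to -0.60) from 4 UMIs in Gzmk-positive and 44 in Gzmk-negative cells, while in Nrp1L/L the ratio was -0.60 (-1.23 to 0.00).

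The granzymes of the chromosome 14 cluster, a set apart from the chromosome 13 pair, went in both directions. In CD8 T cells 1 of 5 measured genes of the cluster was higher in Nrp1L/L and 4 were lower, beside 15.7% higher and 14.2% lower over all genes. Gzmb stood at 4084 in Nrp1L/L and 1884 in control, a log2 ratio of 1.12 (1.07 to 1.16), and Gzmf had 1 UMI in Nrp1L/L and 846 in control, a ratio of -9.89 (-15.20 to -7.41). In control CD8 T cells the UMIs of Gzmd, Gzme and Gzmf, which were found in few cells, lay mostly in cells without Gzma. The 45 Gzma-positive cells held 21.6% of the class's UMIs but 1 of 464 Gzmd, 0 of 479 Gzme and 29 of 846 Gzmf UMIs, and Gzmf was found in 2 of 45 Gzma-positive and 29 of 198 Gzma-negative cells. Gzmc went the same way by UMIs, with 90 of 1905 in Gzma-positive cells. By cells it went the other way, in 18 of 45 Gzma-positive and 60 of 198 Gzma-negative cells. The Gzma-positive control cells were deeper, with a median of 12667 UMIs against 10894.5 in Gzma-negative ones. Of these 45 cells 28 had only 1 or 2 Gzma UMIs, a number also seen in myeloid cells. The 59 Gzmk-positive control cells, with 27.5% of the class's UMIs, held 350 of 846 Gzmf UMIs.

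In lists of related genes, counts are to be set against the shares over all genes, 15.7% higher and 14.2% lower in CD8 T cells and 23.0% higher and 13.5% lower in NK cells. In the list of granule maturation and release, 3 of 15 genes were at least 1.5-fold higher in CD8 T cells and 0 lower, with a median log2 ratio of 0.12, a share near that over all genes. They were Lyst (1.24), a regulator of lysosome-related organelles, and the synaptotagmin-like proteins Sytl1 (0.67) and Sytl3 (0.63). Of 5 granule protease inhibitors 2 were higher, Serpinb9b (1.204) and Serpinb1a (0.93). Of 9 transcription factors of killer lymphocytes 4 were higher and 0 lower, with a median of 0.21. These included Tbx21 (T-bet), which binds the T-box motif and had 250 UMIs in Nrp1L/L and 100 in control cells, a ratio of 1.16 (0.82 to 1.51), and also Id2 (0.84) and Hopx (0.91). In NK cells 4 of 14 granule genes were higher and 1 lower, with a median of 0.01, again near the share over all genes, and Lamp1 (0.81), a granule membrane protein, Sytl3 (0.72) and Vamp7 (1.13), a fusion protein, were among the higher ones. Of 8 transcription factors in NK cells 2 were higher, also near that share, namely Zeb2 (2.004), which acts in late NK maturation, and Stat4 (0.98), which acts downstream of interleukin 12.

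Partners of the death ligands were measured in all classes. In CD8 T cells, of 3 other TNF family ligands Tnf (1.33) and Lta (0.72, interval -0.13 to 1.60) were higher in Nrp1L/L. Fas, the receptor of Fasl, was higher in myeloid cells, at 73.8 in Nrp1L/L and 26.4 in control, a log2 ratio of 1.48 (1.13 to 1.83). The decoy receptor Tnfrsf23, which binds TRAIL in mice, was lower there, with 16 UMIs in Nrp1L/L and 110 in control and a ratio of -1.17 (-2.03 to -0.41). Of 4 death receptors and decoys measured in myeloid cells, these were the 1 higher and the 1 lower. Over all genes of that class 13.5% were higher and 20.5% lower. Within the list of death receptor signalling 1 of 11 genes was higher in CD8 T cells, where 15.7% of all genes were, namely Cflar (0.81), an inhibitor of caspase activation. In the other CD3 class 0 of 11 were higher and 3 lower, with a median log2 ratio of 0.008. Over all genes of that class 17.1% were higher and 15.5% lower. Bid (-1.01) and Bak1 (-0.69), which promote apoptosis, were among the lower ones.

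The genes whose levels were most like those of a member over the 8 groups, among 6634 genes with at least 200 UMIs, differed by member. For Nkg7 they were Cst7 (r = 0.995), Sh2d2a (r = 0.995) and Ms4a4b (r = 0.994), and for Ctsw they were Il2rb (r = 0.999), Cd226 (r = 0.999) and Sept6 (r = 0.997). Fasl was closest to Ifitm10, Sytl3 and Lax1, and Tnfsf10 to Inpp1, Ilkap and Slbp. Gzma was closest to Atp1b1, Gpr171 and Zfp512 (r = 0.98 each), Gzmk to Smpd1 (r = 0.99), Cstf3 and Cfap20, and Prf1 to Rae1, Recql and Ccnh. These values describe the order of 8 groups that share 2 libraries.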

How the data were processed

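The deposited files hold raw UMI counts per gene and barcode for 2 libraries, which the authors made with Cell Ranger 1.3 on build mm10, per the submitters' processing notes; 2600 cells were loaded and cDNA was amplified for 14 cycles, per the labels' protocols. No replicate exists, so p-values were not computed, and an exact test over 2 libraries could not go below p = 0.5. Totals were 8978610 UMIs in the Nrp1L/L and 13042802 UMIs in the control library.

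UMIs were summed per class and library with Python 3.11.15, numpy 2.4.6 and scipy 1.17.1. Levels carry exact Poisson intervals, ratios exact conditional binomial intervals and shares exact Clopper-Pearson intervals. Intervals and limits cover counting error only. A count of 0 was set to 3 counts over the class for a bound, and a gene was counted at 1.5-fold or more with at least 20 UMIs. The ratio code was tested on simulated data. Gates, thinning, scaling, cell cycle, doublets, the UMI minimum and single cells were varied. Possible doublets were kept, and Scrublet (scanpy 1.11.5) served as an alternative. Named genes were the 7 members, from each list and class at most 3 genes with the largest absolute log2 ratio among those past 1.5-fold with at least 50 UMIs, and the 3 genes most like each member by Pearson correlation of log2(level + 1); Gzmb, Nrp1, Esm1, Fibp, Eomes, Ncr1, Ccl5, Cd2, Lat, Foxp3, Cd5, Cd6, Tyrobp and, in NK and CD8 T subsets, Gzmc to Gzmf were added after their values were seen. The members, gates and lists were chosen with earlier results of these data known. T cell receptor constant genes were not analysed here. A result of the death receptor signalling list is not reported here.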

Additional observations from a re-analysis of the deposited data

Results flagged for a closer look

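Gzma went in opposite directions between genotypes in different classes, by intervals that lie on either side of 0. Its log2 ratio of Nrp1L/L over control was 1.82 in CD8 T cells, 1.63 in NK cells and 2.31 in myeloid cells. In the other CD3 class it was -0.13, which is under 1.5-fold. The difference between these ratios was not tested. Myeloid cells had at most 2 Gzma UMIs each, and their level was 2.15% of that of the whole library in Nrp1L/L and 2.16% in control. In the other CD3 class 10 control cells with NK markers and no Cd3d or Cd3e UMI held 899 of 1283 Gzma UMIs, and the ratio without such cells was 1.27. In the non-cycling cells of that class it was 0.67. No group has enough libraries to look for a library that stands apart.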

How the results depend on the processing

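All 24 log2 ratios of members with at least 20 UMIs were recomputed under 12 alternatives, 3 of them chosen after seeing the data. Of these 288 values 281 kept their sign and 262 their side of 1.5-fold, and no called ratio changed sign. In CD8 T cells every member kept its side of 1.5-fold under all 12. Gzma in the other CD3 class ranged from -0.56 to 1.17, the last with CD3 taken as Cd3d and Cd3e alone. Prf1 in NK cells ranged from -0.99 to -0.29. TMM scaling moved all ratios of a class by at most 0.04 and median-of-ratios scaling by at most 0.06.

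The counts of members mostly held. The count lower in NK cells was 0 under stricter gates, after thinning with classes kept, as a mean over cells and without cycling cells, against 1. The count lower in the other CD3 class was 0 under both thinned settings and with CD3 as Cd3d and Cd3e alone, against 1. The count higher in the other CD3 class was 2 under stricter gates, after thinning with classes kept, as a mean over cells and without the highest doublet scores, against 3. Without cycling cells that count held but its members changed. Gzma (0.67) and Gzmk (0.76) came in, and Nkg7 (0.53) and Tnfsf10 (0.41) dropped out. The count higher in NK cells was 2 with gates and values on thinned UMIs, against 4. The count higher in myeloid cells was 2 under both thinned settings and with a minimum of 50 UMIs, and 7 with no minimum, against 4. Of 136 recomputed counts 124 stayed within 1.5 times. The causes were not tested, except that thinning and a higher minimum leave fewer members to count. Leaving out 27 barcodes per library with the highest doublet scores changed no count by more than 1.5 times.

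No paired analysis was possible because each genotype has 1 library. Members with few UMIs, Tnfsf10 and Prf1 outside CD8 T cells above all, are limited by counting error.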

Other observations

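Cells in no class held 489 Gzma UMIs in Nrp1L/L and 131 in control, and most lay in few cells. In Nrp1L/L 8 cells with at least 10 Gzma UMIs held 467 of them, 1 of which also had 10 or more Lyz2 UMIs, and in control 3 such cells held 106, 2 of them with Lyz2. Ccl5, a chemokine of killer lymphocytes that was looked at after its values were seen, had a myeloid level of 4.17% of the level over all cells in Nrp1L/L and 5.11% in control, above the shares of Gzma, Nkg7 and Ctsw, and single myeloid cells held up to 57 Ccl5 UMIs in Nrp1L/L and 64 in control.

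The number of members found per cell differed between libraries after thinning. Of CD8 T cells, 164 of 404 in Nrp1L/L (40.6%) and 55 of 243 in control (22.6%) had UMIs of at least 3 members, and of NK cells 170 of 209 in Nrp1L/L (81.3%) and 63 of 90 in control (70.0%). In NK cells, Gzma and Prf1 were found together in 18 Nrp1L/L cells, where the product of the single shares gives 17.4, and in 12 control cells, where it gives 10.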
